A study of Mus musculus and Homo sapiens with 21 samples.

Results

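MDA231BrM2 cells were selected for growth in the brain from MDA-MB-231, an established human triple-negative breast cancer line first grown from a metastatic pleural effusion, and they carry GFP and luciferase. RNA-Seq was compared between MDA231BrM2-CTL, which received a scrambled CRISPR guide, and MDA231BrM2-ΔIL13RA2, in which IL13RA2 was targeted by CRISPR. The labels call the CTL libraries CRISPR control, and their columns in the human table are named WT. Each group held 3 libraries, and these 6 of the 21 libraries of the series were chosen by their labels and by their columns in the human table. The ΔIL13RA2 cells were not a clone but a pool made with several guides and sorted for cells without surface IL13RA2. Both groups were untreated, with 100000 cells plated per well in medium with 2% serum and collected after 48 h. The labels number the replicates but do not say that they were separate cultures, so the p-values measure the spread between these libraries, which may be technical. The paper describes a CTL population and a knockout population of this line, and the libraries do not replicate the making of either. Other differences between these populations cannot be told apart from the loss of IL13RA2.

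IL13RA2 is a high-affinity receptor for the type 2 cytokine IL13, with a short cytoplasmic tail and no JAK-binding part, and it has long been described as a decoy that takes IL13 away from the signaling receptor formed by IL13RA1 and IL4R. That receptor acts through JAK kinases and STAT6. IL13RA2 is also known as an antigen of glioma and as a member of metastasis signatures of breast cancer cells. Changes in 4 pathways, those of PI3K-AKT, focal adhesion, FOXO and NF-κB, were set aside here, and the other functions that a cell line of this kind expresses are described: stress responses, metabolism, secreted factors, matrix, antigen presentation, cell division and germline genes. Members of the 4 pathways were not removed from the lists of these functions. CXCL8, EREG, TGFA, IL1B, SMAD3, COL6A2, PCK2, CCNE1, CDK6 and BCL2A1 are among the genes that belong to both.

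The 6 libraries held 14744736 to 19945215 reads on genes, with 14744736 to 16473075 in CTL and 14759315 to 19945215 in ΔIL13RA2. Any pair of libraries within a group lay further apart than sampling of reads alone would put them (2.58 to 6.20 chi-square units per gene, against 1 for sampling). Of the 6 epithelial markers, 5 were at or above a mean of 1 FPKM (fragments per kilobase of transcript, scaled to the depth of the library), and CDH1, which encodes E-cadherin, was at 0.0180 FPKM in CTL and 0.0198 in ΔIL13RA2. Among the receptors that define triple-negative disease, ESR1 was at 0.0386 and 0.0366 FPKM in CTL and ΔIL13RA2, PGR at 0.0867 and 0.0670, and ERBB2 was at 6.17 and 6.83. The summed FPKM of 5 leukocyte markers was 0.00669 to 0.113 in CTL and 0.0221 to 0.138 in ΔIL13RA2, with CD3E at 0, and that of 4 neural markers 1.24 to 1.30 and 0.838 to 0.984, with RBFOX3 and OLIG2 at 0. In such bulk libraries fewer cells of a kind and less RNA per cell cannot be told apart. The share of reads on mitochondrial genes was 3.97% to 4.12% in CTL and 3.39% to 3.76% in ΔIL13RA2.

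Over the 11761 genes with a mean of at least 1 FPKM, 3373 (28.7%) differed between ΔIL13RA2 and CTL at an adjusted p under 0.05 in limma on log2(FPKM + 1), with 1485 (12.6%) higher and 1888 (16.1%) lower in the knockout. The log2 differences below are on this scale, ΔIL13RA2 minus CTL, and understate the change of genes with low FPKM. Where FPKM are given as from one value to another, they are the means of 3 CTL and 3 ΔIL13RA2 libraries. The split between higher and lower calls depended on the scale: with every library rescaled to the same sum (TPM) 2444 genes were higher and 1358 lower, since that scaling moved the differences upward by 0.0643 at the median. Outside the 4 pathways, 3241 of 11392 tested genes changed, 1412 upward and 1829 downward. Most changes were small, and 198 of the rises and 267 of the falls reached 0.5 on the log2 scale. In 5315 genes (45.2%) the 3 libraries of one group all lay on one side of the other 3. In the fits that left out 1 library, the count ran from 2235 without ΔIL13RA2 replicate 2 to 3101 without CTL replicate 3. Below, 56 lists of genes are described by how many of their tested members rose or fell, beside these shares over all genes, with no test of the list itself. The plot of the lists shows the shares side by side.

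**Figure D1:**
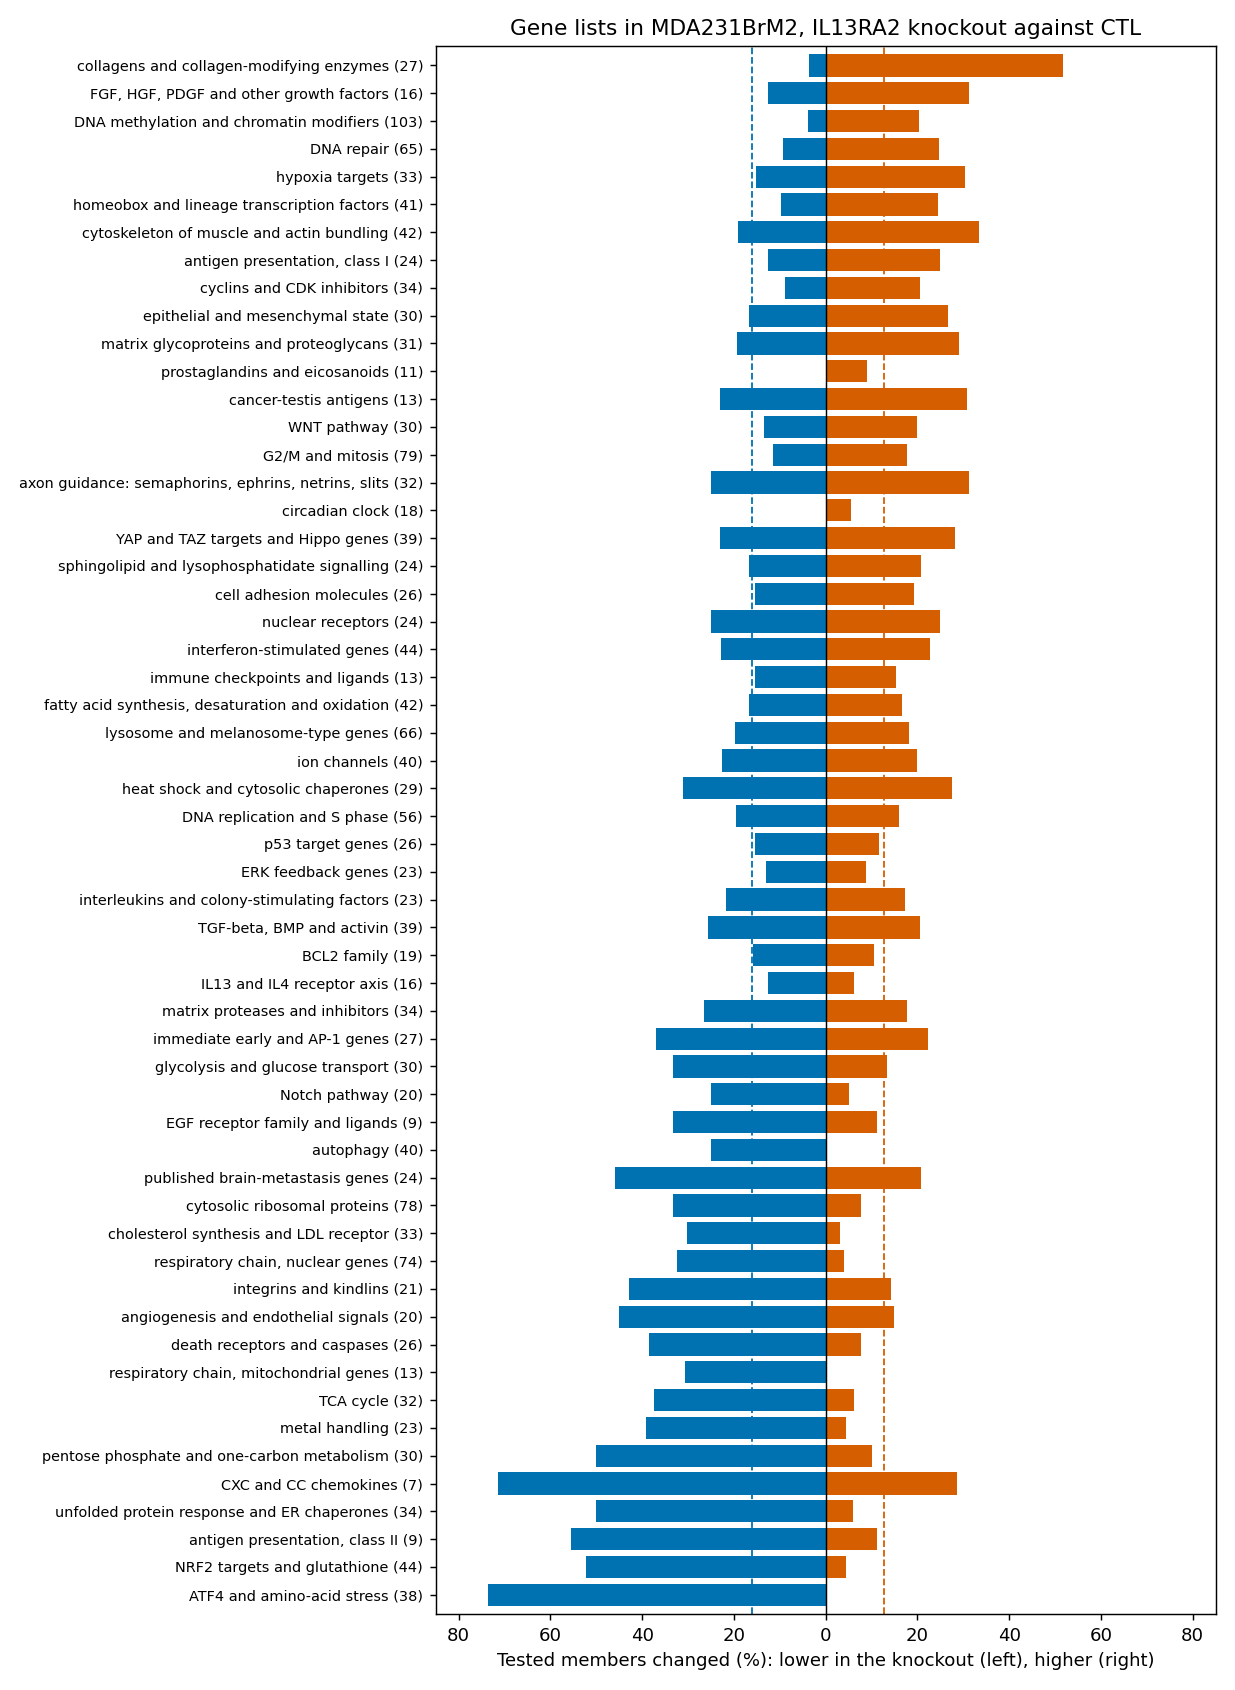
Percent of the tested members of the 56 gene lists that rose (right, orange) or fell (left, blue) in MDA231BrM2-ΔIL13RA2 against CTL at an adjusted p under 0.05 (limma), with the number of tested members after each name. The dashed lines mark the shares over all 11761 genes, 12.6% higher and 16.1% lower. Lists far past the left line include amino-acid stress, chemokines (7 tested genes), class II, NRF2, unfolded protein response and one-carbon metabolism. The collagen list reaches past the right line.

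The targeted gene was measured first. IL13RA2 (ENSG00000123496, minus strand of chromosome X, 115003975 to 115019977 in the deposited table, whose processing notes name hg38) was at 15.1, 15.2 and 18.5 FPKM in the CTL libraries and at 11.4, 13.7 and 11.4 FPKM in the ΔIL13RA2 libraries. All 3 knockout libraries lay below all 3 controls, but the transcript was not lost, and its mean was 74.6% of that in CTL. The means were 16.3 ± 1.94 and 12.2 ± 1.37 FPKM (SD, n = 3 each). The log2 difference was -0.39 (SE 0.0995, adjusted p = 0.0246 in limma), and the 2-sided exact permutation test gave p = 0.1, the smallest that 3 against 3 libraries allow. The call was lost without ΔIL13RA2 replicate 1 (adjusted p = 0.0714) and without replicate 3 (adjusted p = 0.0790). FPKM gives a single value per gene, so whether the remaining transcript was edited was not analysed here. The paper reports loss of the protein in the knockout cells by flow cytometry and Western blot. Its discussion describes the transcript as slightly higher in the knockout, the opposite direction to these libraries.

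Of 16 tested genes of the IL13 and IL4 receptor axis, 1 rose and 2 fell, against 3 and 2 on TPM. IL13RA1, the signaling receptor chain for IL13, was at 14.4, 14 and 13.8 FPKM in CTL and at 18.4, 17.3 and 17.2 in ΔIL13RA2, a rise of 0.31 (adjusted p = 0.00164) with no overlap of the groups. STAT6, the transcription factor that this receptor activates, was at 16.3, 16.4 and 15.2 FPKM in CTL and at 12.2, 12.1 and 11.1 in ΔIL13RA2, and was lower in every knockout library (-0.40, adjusted p = 0.00122). IL4R, the shared chain of the IL4 and IL13 receptors, was at a mean of 6.57 and 6.9 FPKM (0.06, adjusted p = 0.454), and the kinases JAK1, JAK2 and TYK2 did not pass the test. TMEM219, a partner described for IL13RA2 in the binding of chitinase-like proteins, stood at 10.6 and 10.6 FPKM (0.01, adjusted p = 0.88). IL2RG, the chain of the type I IL4 receptor, had 0 reads in CTL and 5 in ΔIL13RA2. The falls in this list numbered 1 without ΔIL13RA2 replicate 1 or replicate 3.

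The study also listed PCR primers for several other genes. INSR, the insulin receptor, was at 1.51, 1.48 and 1.4 FPKM in CTL and at 2.55, 2.69 and 2.77 in ΔIL13RA2, a rise of 0.58 (adjusted p = 0.000579). EFNB1, an ephrin ligand, was at 2.23, 1.99 and 2.2 FPKM in CTL against 2.65, 3.09 and 2.25 in ΔIL13RA2 and did not pass the test (0.22, adjusted p = 0.116). CCND2, which encodes cyclin D2, lay under the minimum of 1 FPKM, at 0.691, 0.666 and 0.600 FPKM in CTL and at 0.119, 0.120 and 0.130 in ΔIL13RA2, from 213 and 48 reads. Every knockout library was far below the controls, and in the fit with no minimum CCND2 had a log2 difference of -0.56 (adjusted p = 0.00811). TNFSF10, the death ligand TRAIL, was also under the minimum, with means of 0.650 FPKM in CTL and 1.12 in ΔIL13RA2, and in that fit its adjusted p was 0.0559. EPHB1 had 2 reads in each group.

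Lower expression ran through most of the genes of amino-acid stress. When amino acids run short or proteins misfold in the endoplasmic reticulum, cells phosphorylate the translation factor eIF2α, the transcription factor ATF4 is made, and it switches on amino-acid transport, serine and asparagine synthesis and tRNA charging. Of 38 tested genes of this program, 28 fell, 0 rose and 10 did not pass the test, with a median log2 difference of -0.28 against 0.01 over all genes. On TPM 21 fell and 1 rose, with the neighbours' median removed (the median log2 difference of the 25 tested genes on each side along the chromosome, taken from every gene) 27 fell, and in the fits without 1 library 21 to 25 fell. The fallen members lay on 16 chromosomes.

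GDF15, a secreted stress cytokine, was at 7.66, 7.8 and 6.73 FPKM in CTL and at 2.03, 1.92 and 2.59 in ΔIL13RA2. The groups were far apart, with a fall of -1.40 (SE 0.0912, adjusted p = 6.97e-05). DDIT3, which encodes the pro-apoptotic factor CHOP, was at 18.9, 20.8 and 18.5 FPKM in CTL and at 8.98, 8.56 and 11.1 in ΔIL13RA2 (-0.96, adjusted p = 0.000485). CHAC1, which degrades glutathione, was at 12.1, 13 and 12.5 FPKM in CTL against 6.53, 7.23 and 6.02 in ΔIL13RA2 (-0.83, adjusted p = 0.000147). For each of these 3 genes the highest knockout library was below the lowest control. ATF4 itself fell less, from 134 to 112 FPKM (-0.26, adjusted p = 0.00482), and TRIB3, a pseudokinase and feedback gene of the program, fell from 22.8 to 14.3 FPKM (-0.64, adjusted p = 0.00050).

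Within the program the changes followed several functions. The enzymes that charge tRNA numbered 12, of which 7 fell and 0 rose, led by GARS (from 88.5 to 53.6 FPKM, -0.71, adjusted p = 9.72e-06) and AARS (from 70.3 to 44.1 FPKM, -0.66, adjusted p = 2.63e-05). LARS, IARS and NARS had differences of 0.09, 0.04 and 0.01 and did not pass. The amino-acid transporters SLC3A2 (-0.53), SLC7A11 (-0.46), SLC7A5 (-0.33) and SLC1A5 (-0.30) all fell, with adjusted p of 7.50e-05, 0.00492, 0.000589 and 0.00124. The serine synthesis enzymes PSPH (-0.45, adjusted p = 0.00132), PSAT1 (-0.22, adjusted p = 0.00371) and PHGDH (-0.20, adjusted p = 0.0339) fell as well, PHGDH losing its call in each fit that left out a library other than CTL replicate 3. ASNS, the asparagine synthetase, was under the minimum at a mean of 0.408 FPKM in CTL and 0.278 in ΔIL13RA2.

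Genes of the unfolded protein response, by which the endoplasmic reticulum adjusts its chaperones to its load, fell in 17 of 34 tested members and rose in 2, with a median of -0.16. On TPM 16 fell and 3 rose. HSPA5, the main chaperone of the endoplasmic reticulum, was at 450.2, 436 and 404 FPKM in CTL and at 229.7, 227 and 223 in ΔIL13RA2, with all knockout libraries far below the controls. The fall was -0.92 (SE 0.0425, adjusted p = 1.65e-05). HERPUD1, which takes part in the removal of misfolded proteins, was at 26.1, 25.1 and 23.6 FPKM in CTL against 12.1, 12.1 and 12.7 in ΔIL13RA2 (-0.96, adjusted p = 1.99e-05). CANX, a lectin chaperone, fell from 209.6 to 141 FPKM (-0.57, adjusted p = 2.52e-05), and the sensor ERN1 and the factor XBP1 fell by smaller amounts (-0.27, adjusted p = 0.0309, and -0.28, adjusted p = 0.00383). Other abundant chaperones of the same compartment did not pass: CALR stood at 495 and 500.3 FPKM and HSP90B1 at 187 and 192. ERN1 lost its call in the fits without a library other than the one without ΔIL13RA2 replicate 1. DNAJC3 (0.35, adjusted p = 0.00137) and ERO1A (0.31, adjusted p = 0.00302) rose, and the tested neighbours of DNAJC3 on chromosome 13 were themselves raised, with a median of 0.34.

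The transcription factor NRF2, encoded by NFE2L2, controls genes for glutathione, NADPH and iron storage. Of 44 tested genes of this kind, 23 fell and 2 rose, with a median of -0.23, and on TPM 22 fell and 6 rose. NQO1, a quinone reductase and standard target of NRF2, was at 76, 76.9 and 80.5 FPKM in CTL and at 34, 32.2 and 32.9 in ΔIL13RA2. The groups lay apart by a fall of -1.21 (SE 0.038, adjusted p = 6.04e-06). FTL, the light chain of the iron store ferritin, was at 1526, 1703 and 1656 FPKM in CTL against 971, 949 and 955 in ΔIL13RA2 (-0.76, adjusted p = 3.80e-05), and the heavy chain FTH1 fell from 162 to 109.7 FPKM (-0.56, adjusted p = 0.000198). Both ferritin genes have many processed pseudogenes, between which the counting could have split reads. GPX3 (-0.74), OSGIN1 (-0.70) and GSTM1 (-0.56) fell too, with adjusted p of 0.000122, 0.00376 and 0.00297.

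NFE2L2 fell from 20.52 to 14 FPKM (-0.52, adjusted p = 0.00466), on chromosome 2, where its tested neighbours had a median of -0.31. Not every target moved. HMOX1, GCLM and GCLC, which are often used as readouts of NRF2, had differences of -0.03, -0.02 and 0.03 with adjusted p of 0.844, 0.855 and 0.717. GSTP1, a glutathione transferase, rose from 25.8 to 37.6 FPKM (0.53, adjusted p = 0.000357), and so did the exporter ABCC4 (0.58, adjusted p = 0.000469), whose neighbours on chromosome 13 had a median of 0.34.

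Metallothioneins, small proteins that bind zinc and copper, fell in 4 of 5 tested members and rose in 0. MT1A was at 9.24, 10.5 and 7.74 FPKM in CTL and at 2.27, 2.3 and 2.53 in ΔIL13RA2 (-1.59, adjusted p = 5.68e-05). MT1E fell from 84.2 to 45.5 FPKM (-0.87, adjusted p = 7.50e-05) and MT2A from 538 to 398 FPKM (-0.43, adjusted p = 0.000535), while MT1X stood at 4.47 and 3.78 FPKM (adjusted p = 0.20). The genes of this cluster on chromosome 16 are near copies of each other, and their reads could have been shared. The transferrin receptor TFRC rose slightly (0.15, adjusted p = 0.0231), in 1 rise against 9 falls over the 23 tested genes of metal handling (2 and 7 on TPM), and that rise lost its call in the fits without CTL replicate 1 or 2 and without ΔIL13RA2 replicate 2 or 3. Over the amino-acid stress, unfolded protein, NRF2 and metal lists together, each gene taken once, 73 of 135 fell and 5 rose.

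**Figure D2:**
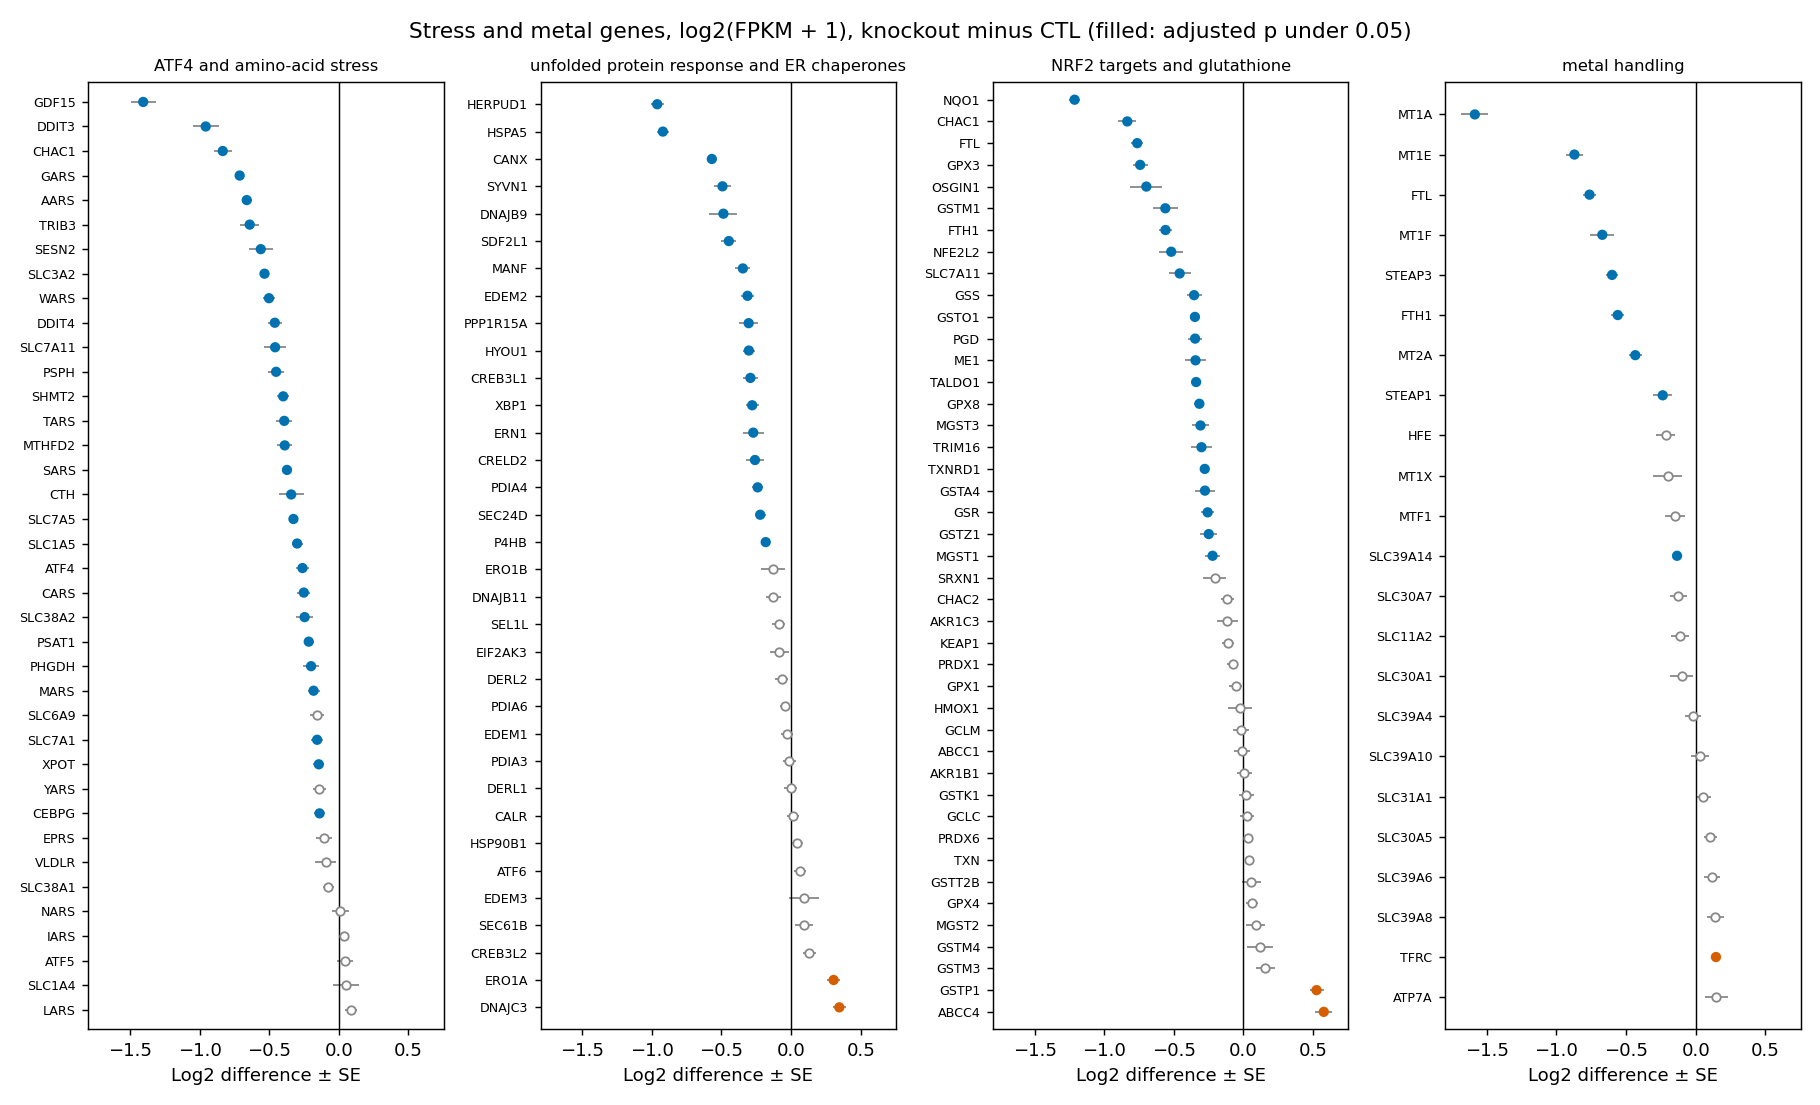
Log2 difference of FPKM + 1 (ΔIL13RA2 minus CTL, horizontal axis) with its standard error for tested members of the amino-acid stress, unfolded protein response, NRF2 and glutathione, and metal handling lists, sorted within each panel. Filled points passed an adjusted p of 0.05 in limma and open points did not. Most filled points lie left of 0, and 0 of the amino-acid stress genes has a filled point right of it.

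In the lists of central metabolism described next, falls outnumbered rises. In the pentose phosphate and one-carbon pathways, which supply NADPH, serine and nucleotides, 15 of 30 tested genes fell and 3 rose (median -0.16), with 1 rise in each fit that left out a library other than CTL replicate 3. SHMT2, the mitochondrial serine hydroxymethyltransferase, fell from 71.7 to 54 FPKM (-0.40, adjusted p = 0.00060). Several of these enzymes are also members of the amino-acid stress or NRF2 lists. In the TCA cycle 12 of 32 fell and 2 rose (median -0.05, which was 0.01 on TPM), and 7 fell without CTL replicate 1. PCK2, the mitochondrial PEP carboxykinase, fell from 13.3 to 7.66 FPKM (-0.72, adjusted p = 0.000106). IDH1, the cytosolic isocitrate dehydrogenase on chromosome 2, fell from 27.4 to 15.2 FPKM (-0.81, adjusted p = 1.65e-05), beside neighbours with a median of -0.38.

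Nuclear genes of the respiratory chain fell in 24 of 74 tested members and rose in 3, with a median of -0.09 that was -0.03 on TPM, where 18 fell and 5 rose. NDUFS1, a core subunit of complex I, fell from 19.2 to 12.5 FPKM (-0.58, adjusted p = 7.50e-05), with neighbours at -0.33. Of the 13 mitochondrially encoded genes 4 fell and 0 rose, led by MT-CO1, a subunit of cytochrome c oxidase, from 6159 to 4916 FPKM (-0.33, adjusted p = 0.000254). Of them 8 fell without ΔIL13RA2 replicate 1 and 2 without CTL replicate 3, ΔIL13RA2 replicate 2 or ΔIL13RA2 replicate 3, and 0 after quantile normalization. Cytosolic ribosomal proteins fell in 26 of 78 and rose in 6, with a median of -0.06 that turned to 0.01 on TPM, where 14 fell, and 17 fell without ΔIL13RA2 replicate 2. Cholesterol synthesis genes fell in 10 of 33 and rose in 1, against 7 and 2 on TPM. Of this list 5 fell without CTL replicate 1 or without ΔIL13RA2 replicate 2, and 2 rose without ΔIL13RA2 replicate 3. PPARG, a nuclear receptor of lipid storage, rose from 6.64 to 11.4 FPKM (0.70, adjusted p = 0.000298), with neighbours at 0.21.

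Major histocompatibility class II molecules present peptides to CD4+ T cells and are made by some tumor cells. Of 9 tested class II genes 5 fell and 1 rose, in every fit without 1 library as well. HLA-DRA (chromosome 6, 32439842 to 32445046) was at 58.2, 68.2 and 67.9 FPKM in CTL and at 16.4, 18.6 and 17.9 in ΔIL13RA2. The control libraries all stood above 3 times the highest knockout library, with a log2 difference of -1.82 (SE 0.0718, adjusted p = 1.00e-05). HLA-DPA1 was at 2.43, 2.26 and 2.67 FPKM in CTL against 0.478, 0.484 and 0.302 in ΔIL13RA2 (-1.28, adjusted p = 8.76e-05), and HLA-DRB1 at 5.02, 4.1 and 3.64 FPKM in CTL against 1.54, 1.07 and 2.06 in ΔIL13RA2 (-1.05, adjusted p = 0.00349). The invariant chain CD74 fell from 65.2 to 42.1 FPKM (-0.62, adjusted p = 5.68e-05) and the peptide editor HLA-DMA from 9.48 to 6.08 FPKM (-0.57, adjusted p = 0.000304).

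HLA-DPB1 and HLA-DRB5 were under the minimum, a mean of 1 FPKM over all 6 libraries, at means of 1.26 and 1.51 FPKM in CTL and 0.320 and 0.341 in ΔIL13RA2. In the fit with no minimum both were lower, with log2 differences of -0.78 (adjusted p = 0.00446) and -0.91 (adjusted p = 0.00582). CIITA, the transactivator of class II genes, was at 0.883 FPKM in CTL and 0.684 in ΔIL13RA2, and its difference of -0.16 did not pass there (adjusted p = 0.281). The class II promoter factors RFX5, RFXAP and RFXANK had differences of 0.08, 0.18 and 0.00 and did not pass. CTSS, the lysosomal protease that trims the invariant chain, rose from 2.53 to 3.79 FPKM (0.44, adjusted p = 0.00108). The DRB genes are close copies whose reads the counting could have split, and leukocyte markers were near 0 in all 6 libraries, with PTPRC at 0.00964 FPKM in CTL and 0.0383 in ΔIL13RA2.

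Class I genes, which present to CD8+ T cells, were higher in 6 and lower in 3 of 24 tested members, with 1 lower without CTL replicate 1, ΔIL13RA2 replicate 1 or ΔIL13RA2 replicate 3. HLA-B was at 31.3, 33.1 and 32.2 FPKM in CTL and at 44.3, 41 and 43.9 in ΔIL13RA2 (0.41, adjusted p = 0.000493), and HLA-C rose from 17.4 to 21.9 FPKM (0.32, adjusted p = 0.0116). CD274, which encodes PD-L1, rose from 4.14 to 5.6 FPKM (0.36, adjusted p = 0.00633), and CD276, another checkpoint ligand, rose from 7.94 to 12.5 FPKM (0.60, adjusted p = 0.000102) among chromosome 15 genes with a median of 0.34. Interferon-stimulated genes split evenly, with 10 of 44 higher and 10 lower. IFITM1 (0.69, adjusted p = 0.00194), the RNA sensor gene DDX58 (0.57, adjusted p = 0.0032) and BST2 (0.41, adjusted p = 0.000493) rose, and IFI6 (-0.53, adjusted p = 0.00261) and ISG15 (-0.37, adjusted p = 0.0124) fell. SP100 and IFIH1 also fell, both on chromosome 2 beside neighbours at -0.37 and -0.30, and with the neighbours' median removed 3 members of the list were lower.

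Secreted attractants and cytokines were among the larger changes. All 7 tested chemokine genes and receptors changed, 5 downward and 2 upward. CXCL8, the neutrophil attractant IL-8, was at 39.9, 37.6 and 37.7 FPKM in CTL and at 17.5, 18.7 and 18.6 in ΔIL13RA2, with well separated groups (-1.03, SE 0.0432, adjusted p = 1.00e-05). Its relatives CXCL1, CXCL2 and CXCL3 fell from 5.88 to 4.31 FPKM, from 5.27 to 3.49 FPKM and from 1.63 to 0.849 FPKM (adjusted p of 0.00611, 0.00101 and 0.0145), CXCL3 losing its call without CTL replicate 1. CXCR4, the receptor for CXCL12 and long studied in metastasis, was at 22.6, 22.3 and 23.2 FPKM in CTL and at 37.6, 30.7 and 35.5 in ΔIL13RA2. It rose by 0.58 (adjusted p = 0.000993) in a run of chromosome 2 genes with a median of -0.34. CCL28, the other riser, went from 1.17 to 1.77 FPKM and lost its call without CTL replicate 1, ΔIL13RA2 replicate 1 or ΔIL13RA2 replicate 2.

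Among the interleukins, colony-stimulating factors and their receptors 5 of 23 fell and 4 rose, while on TPM 5 fell and 7 rose. IL24, a cytokine of the IL10 family, was at 24.1, 26.3 and 23.2 FPKM in CTL and at 7.02, 7.24 and 7.14 in ΔIL13RA2 (-1.65, SE 0.0525, adjusted p = 6.04e-06). IL11 was at 23.9, 23.5 and 22.1 FPKM in CTL against 16.2, 14.8 and 13.8 in ΔIL13RA2 (-0.61, adjusted p = 0.000456), and LIF, a cytokine of the same gp130 family, fell from 14.6 to 10.6 FPKM (-0.44, adjusted p = 0.00208). IL31RA fell from 8.39 to 5.29 FPKM (-0.58, adjusted p = 0.000318). IL1B, the inflammatory cytokine IL-1β, rose from 2.32 to 3.51 FPKM (0.44, adjusted p = 0.00254, chromosome 2 neighbours at -0.26), as did CSF2, which encodes GM-CSF (0.44, adjusted p = 0.0224), and without CTL replicate 1 the rises numbered 2. CSF2 lost its call without CTL replicate 1 or 2 or ΔIL13RA2 replicate 3.

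Among 9 tested genes of the EGF receptor family and its ligands 3 ligands fell. EREG, which encodes epiregulin, was at 3.52, 3.42 and 3.23 FPKM in CTL and at 0.542, 0.54 and 0.443 in ΔIL13RA2 (-1.54, SE 0.0695, adjusted p = 1.44e-05). TGFA was at 4.26, 4.72 and 4.89 FPKM in CTL against 2.54, 2.58 and 2.35 in ΔIL13RA2 (-0.69, adjusted p = 0.000328), and AREG fell from 2.85 to 2.15 FPKM (-0.29, adjusted p = 0.0489). HBEGF and NRG1 did not pass (-0.10 and -0.03), nor did EGFR, at 53 and 55.2 FPKM (adjusted p = 0.284). LRIG1, an inhibitor of the receptor family, rose from 4.55 to 6.88 FPKM (0.51, adjusted p = 0.00144). AREG lost its call on TPM and in all 6 fits that left out a library, and on TPM 2 members fell and 2 rose.

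Other growth factors moved in both directions. MDK, which encodes midkine, was at 14.9, 13.9 and 13.1 FPKM in CTL and at 8.67, 9.18 and 7.62 in ΔIL13RA2 (-0.66, adjusted p = 0.000625), and its relative PTN, pleiotrophin, was at 2.49, 2.27 and 2.08 FPKM in CTL against 4.05, 4.11 and 3.62 in ΔIL13RA2 (0.59, adjusted p = 0.0010). The pair thus changed in opposite directions. FGF1 rose from 2.84 to 5.29 FPKM (0.71, adjusted p = 0.000147). In the TGF-β, BMP and activin list 8 of 39 rose and 10 fell, and the falls were fewest (6) without CTL replicate 1 and the rises fewest (5) without ΔIL13RA2 replicate 2, while on TPM 12 rose and 6 fell. INHBB, an activin subunit, fell from 3.15 to 1.22 FPKM (-0.90, adjusted p = 0.000147) beside neighbours at -0.31. SMAD3, a signal transducer of TGF-β on chromosome 15, rose from 14.8 to 25.5 FPKM (0.74, adjusted p = 0.000133) beside neighbours at 0.35. DKK1, a secreted WNT inhibitor, rose from 143 to 190.1 FPKM (0.41, adjusted p = 0.000297).

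**Figure D3:**
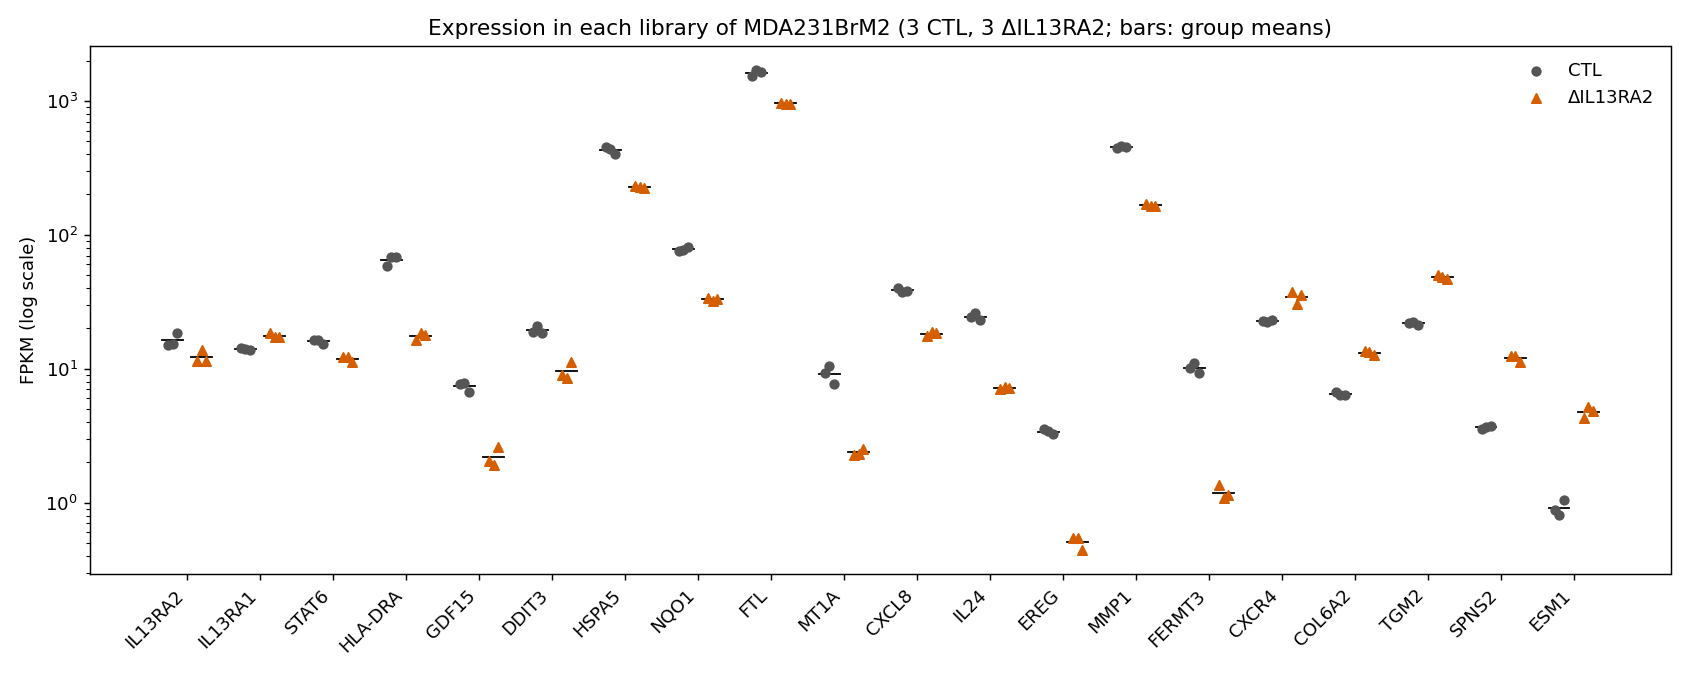
FPKM (vertical axis, log scale) in each of the 3 CTL libraries (grey circles) and 3 ΔIL13RA2 libraries (orange triangles) for 20 genes named in the text, with a bar at each group mean. In all 20 genes the 3 knockout libraries lie on one side of the 3 controls, as they do in 45.2% of all tested genes. Most genes were named by a rule that asked for this, so it is not a result. The widest gaps on the log axis are those of FERMT3 and EREG.

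Secreted matrix proteases and their regulators held some of the most abundant changed genes. MMP1, the interstitial collagenase (chromosome 11, 102789920 to 102798160), was at 445, 459 and 450.2 FPKM in CTL and at 169, 163 and 164 in ΔIL13RA2. The replicates of each group lay close together, and the fall was -1.44 (SE 0.0298, adjusted p = 7.25e-07). MMP3, stromelysin 1, was at 2.52, 3.56 and 2.96 FPKM in CTL against 0.854, 0.964 and 0.749 in ΔIL13RA2 (-1.11, adjusted p = 0.000339). SERPINB2, an inhibitor of the plasminogen activators, fell from 15.8 to 9.09 FPKM (-0.73, adjusted p = 0.000371). The activators PLAT and PLAU rose, from 67.3 to 91.5 FPKM (0.44, adjusted p = 0.000282) and from 105 to 123 FPKM (0.23, adjusted p = 0.00823). In the whole list 9 of 34 fell and 6 rose, against 9 and 10 on TPM, and MMP14, the membrane-bound collagenase, stood at 141 and 141 FPKM.

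Collagens and the enzymes that modify them rose in 14 of 27 tested members and fell in 1, with a median of 0.20. Among the 13 tested collagen chains 9 rose and 1 fell, which was COL13A1 (-0.15, adjusted p = 0.0165). COL13A1 lost its call on TPM and without CTL replicate 1, ΔIL13RA2 replicate 2 or ΔIL13RA2 replicate 3. COL6A2, a chain of the pericellular collagen VI, was at 6.75, 6.36 and 6.33 FPKM in CTL and at 13.5, 13.2 and 12.7 in ΔIL13RA2 (0.92, adjusted p = 2.27e-05), and COL6A1 next to it on chromosome 21 rose from 4.22 to 7.77 FPKM (0.75, adjusted p = 0.000122). The neighbours of this pair had medians of -0.07 and -0.05. COL4A1 and COL4A2, which build basement membrane, rose from 2.18 to 4.76 FPKM and from 4.99 to 9.38 FPKM (adjusted p of 0.000133 and 3.19e-05), on a stretch of chromosome 13 with a neighbour median of 0.47. LOXL1, which cross-links elastin and collagen, rose from 2.89 to 6.16 FPKM (0.88, adjusted p = 0.000625) beside neighbours at 0.34 on chromosome 15. With the neighbours' median removed 11 members rose and 2 fell, and the rises numbered 9 without CTL replicate 1, CTL replicate 3 or ΔIL13RA2 replicate 2 and 8 without ΔIL13RA2 replicate 1.

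Matrix glycoproteins and proteoglycans rose in 9 of 31 and fell in 6, and on TPM in 11 and 2. CSPG4, the NG2 proteoglycan, was at 6.16, 6.09 and 5.65 FPKM in CTL and at 13, 14.2 and 12.9 in ΔIL13RA2 (1.04, adjusted p = 2.59e-05), beside chromosome 15 neighbours at 0.33. GPC6, a glypican on chromosome 13 with neighbours at 0.27, was at 0.629, 0.663 and 0.825 FPKM in CTL against 2.28, 2.36 and 2.43 in ΔIL13RA2 (0.98, adjusted p = 0.000137). HAS2, which makes hyaluronan, rose from 3.8 to 7.25 FPKM (0.78, adjusted p = 5.68e-05) with neighbours at 0.07, while HMMR, a hyaluronan-binding protein of the mitotic spindle, fell from 3.53 to 1.5 FPKM (-0.87, adjusted p = 0.00162). The falls numbered 2 without CTL replicate 2 and 3 without ΔIL13RA2 replicate 1 or 2. TGM2, the transglutaminase that cross-links matrix proteins, was at 21.8, 22.3 and 21.3 FPKM in CTL and at 50.5, 48.7 and 46.9 in ΔIL13RA2. Every knockout library was above 2 times every control, with a rise of 1.13 (SE 0.0399, adjusted p = 6.12e-06).

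Kindlins bind integrin tails and switch integrins on, and the 3 of them did not move together. FERMT3, the kindlin of blood cells, was at 10.04, 11 and 9.2 FPKM in CTL and at 1.35, 1.07 and 1.13 in ΔIL13RA2 (-2.34, SE 0.0788, adjusted p = 6.04e-06). FERMT1, the epithelial form, was at 4.25, 4.43 and 4.17 FPKM in CTL against 2.27, 2.53 and 2.15 in ΔIL13RA2 (-0.67, adjusted p = 0.000339), and FERMT2, the widespread form, rose from 18.4 to 21.8 FPKM (0.23, adjusted p = 0.00833). ITGB2, the β chain of the leukocyte integrins, fell from 1.95 to 0.871 FPKM (-0.66, adjusted p = 0.000828), and ITGB1, the most abundant of the tested β chains, rose from 165 to 202 FPKM (0.29, adjusted p = 0.00467). Over the list 9 of 21 fell and 3 rose. These genes overlap with the focal adhesion pathway.

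Actin and muscle-type cytoskeleton genes rose in 14 of 42 and fell in 8. MYO1D, a motor that ties membranes to actin, was at 4.7, 4.74 and 4.42 FPKM in CTL and at 0.988, 1.03 and 1.14 in ΔIL13RA2 (-1.45, adjusted p = 1.07e-05). FSCN1, which encodes the actin-bundling protein fascin, fell from 35.7 to 23.8 FPKM (-0.56, adjusted p = 0.000257) with neighbours at -0.21, and TAGLN, transgelin, rose from 7.16 to 13 FPKM (0.78, adjusted p = 0.00020). Of the genes of epithelial and mesenchymal state 8 of 30 rose and 5 fell, and without CTL replicate 1 or 2 or ΔIL13RA2 replicate 2 or 3 the falls numbered 3, while EPCAM below lost its call without CTL replicate 1 or 2 or ΔIL13RA2 replicate 1 or 3. On TPM 11 rose and 2 fell. Epithelial genes changed both ways. The desmosomal genes DSP and JUP rose, from 18.9 to 27.6 FPKM (0.53, adjusted p = 0.000106) and from 3.17 to 4.77 FPKM (0.47, adjusted p = 0.00151), while CLDN4, a tight junction claudin, fell from 10.8 to 9.16 FPKM (-0.21, adjusted p = 0.0313), and the keratins KRT18 and KRT19 fell by less (-0.13 and -0.14, adjusted p of 0.0158 and 0.0447). These 3 lost their calls on TPM, KRT19 also in all 6 fits that left out a library and CLDN4 in each of those but the one without CTL replicate 3. VIM, the mesenchymal filament protein vimentin, fell from 490.3 to 433 FPKM (-0.18, adjusted p = 0.00452) but lost its call after quantile normalization, EPCAM rose from 2.85 to 3.76 FPKM (0.31, adjusted p = 0.0324), and ZEB1 and FN1 did not pass (0.29 and 0.08).

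Signals known from vessels and axons also differed. ESM1, endocan, rose from 0.88, 0.809 and 1.05 FPKM in CTL to 4.26, 5.13 and 4.85 in ΔIL13RA2 (1.59, adjusted p = 2.39e-05). The endothelial receptor genes TIE1 and KDR, which encodes VEGFR2, fell from 3.45 to 1.41 FPKM (-0.88, adjusted p = 0.00017) and from 3.17 to 2.31 FPKM (-0.33, adjusted p = 0.0132). In the angiogenesis list 9 of 20 fell and 3 rose, and without ΔIL13RA2 replicate 2 the falls numbered 5 and KDR lost its call. Of the other endothelial markers PECAM1 was at 0.115 FPKM in CTL and 0.134 in ΔIL13RA2, and CDH5, VWF and TEK were lower still. NTN4, a netrin of basement membranes, was at 15.4, 16.1 and 15.3 FPKM in CTL and at 6.57, 6.05 and 5.97 in ΔIL13RA2 (-1.21, adjusted p = 1.00e-05), and EFNB2, an ephrin of arteries and axons on chromosome 13, rose from 5.91 to 11.1 FPKM (0.80, adjusted p = 0.000102) beside neighbours at 0.47. SPNS2, the exporter of sphingosine 1-phosphate, was at 3.53, 3.68 and 3.72 FPKM in CTL and at 12.5, 12.5 and 11.2 in ΔIL13RA2. Every knockout library was above 3 times every control (1.49, SE 0.0568, adjusted p = 6.94e-06), and the receptor S1PR3 rose from 2.5 to 3.35 FPKM (0.31, adjusted p = 0.00732).

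Genes that others have tied to brain metastasis changed in 16 of 24, with 11 lower and 5 higher, and on TPM 7 lower and 7 higher. The list includes IL13RA2 itself, which was targeted. EREG, MMP1, SERPINB2, LTBP1, FSCN1, CXCL1, ANGPTL4 and ST6GALNAC5 were among those that fell, and LOXL1, CTSS, TNC, ID1 and KISS1 rose. ST6GALNAC5, a sialyltransferase, went from 2.75 to 2.19 FPKM (-0.23, adjusted p = 0.0411) and lost its call on TPM and in all 6 fits that left out a library, and TNC, tenascin C, from 13.6 to 17.8 FPKM (0.36, adjusted p = 0.00127). The falls numbered 7 without ΔIL13RA2 replicate 3, and ANGPTL4 lost its call without CTL replicate 1 or 2 or ΔIL13RA2 replicate 2 or 3. PTGS2, which encodes COX-2, stood at 5.23 and 4.14 FPKM and did not pass (adjusted p = 0.0792).

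Targets of the mechanosensitive factors YAP and TAZ (WWTR1) split, with 11 of 39 higher and 9 lower, and the rises numbered 7 without ΔIL13RA2 replicate 1 and 6 without replicate 2. Those that fell included abundant, widely used targets: ANKRD1 was at 259.9, 253 and 272 FPKM in CTL and at 150.4, 148 and 158 in ΔIL13RA2 (-0.78, adjusted p = 2.18e-05), and CTGF, a matricellular growth factor, fell from 247 to 189.9 FPKM (-0.38, adjusted p = 0.000147). IGFBP3, which binds insulin-like growth factors, fell from 49 to 25.5 FPKM (-0.92, adjusted p = 6.94e-06) beside neighbours at -0.22. Regulators of the pathway changed in both directions: AMOT, the scaffold protein angiomotin, fell from 5.05 to 3.0 FPKM (-0.60, adjusted p = 0.000242) beside neighbours at 0.11. Those that rose included its relative AMOTL2 (0.36, adjusted p = 0.000713), SAV1 (0.36, adjusted p = 0.00124) and LATS2 (0.20, adjusted p = 0.0229), the last losing its call without CTL replicate 1 or 3 or ΔIL13RA2 replicate 1 or 2. YAP1 stood at 36.1 and 37 FPKM (adjusted p = 0.43).

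Cancer-testis antigens are germline genes that tumors express, many of them on the X chromosome. Of 88 listed genes 13 were above the minimum, of which 4 rose and 3 fell. The SPANX family had members in both directions. SPANXB1 was at 103, 117 and 119 FPKM in CTL and at 11, 9.93 and 8.24 in ΔIL13RA2 (-3.42, adjusted p = 1.00e-05), while SPANXA1 was at 1.77, 0.985 and 1.51 FPKM in CTL against 5.71, 3.96 and 4.63 in ΔIL13RA2 (1.25, adjusted p = 0.00144). XAGE1B was at 36.4, 26.2 and 28.8 FPKM in CTL and at 1.41, 1.15 and 6.27 in ΔIL13RA2, with ΔIL13RA2 replicate 3 above the other knockout libraries but below every control (-3.22, SE 0.502, adjusted p = 0.00802). The SPANX and XAGE genes are near-identical copies, so that reads could have been assigned to the wrong member. CT83 fell from 17.5 to 11.6 FPKM (-0.57, adjusted p = 0.0171) but lost its call without CTL replicate 1 or 2 or ΔIL13RA2 replicate 2, PAGE5 stood at 77 and 78 FPKM, and TGIF2LX, a germline homeobox gene, rose from 0, 0.204 and 0.184 to 1.79, 2.53 and 2.06 FPKM (1.47, adjusted p = 0.000162).

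Of 26 death-receptor and caspase genes 10 were lower and 2 higher, and on TPM 7 lower and 5 higher. The falls numbered 6 without CTL replicate 1, ΔIL13RA2 replicate 2 or ΔIL13RA2 replicate 3, and the rises 1 without CTL replicate 1 or ΔIL13RA2 replicate 2. CASP8, the initiator caspase, and CFLAR, its inhibitor, sit together on chromosome 2 and fell from 5.36 to 3.48 FPKM and from 3.47 to 2.45 FPKM (adjusted p of 0.000342 and 0.00191), and their neighbours had a median of -0.38. Both lost their call after that median was removed. With the neighbours' median removed, 5 members of the list were lower. MLKL, the effector of necroptosis, fell from 5.0 to 3.39 FPKM (-0.46, adjusted p = 0.0034). BCL2A1, an inhibitor of apoptosis on chromosome 15, rose from 1.86 to 4.15 FPKM (0.85, adjusted p = 0.000642) beside neighbours at 0.35.

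Genes of cell division moved in both directions. The shares changed were 29.1% for G2/M and mitosis, 35.7% for DNA replication and 33.8% for DNA repair, against 28.7% over all genes. In G2/M and mitosis 14 of 79 rose and 9 fell (median 0.11), against 22 and 7 on TPM, with 6 rises without CTL replicate 1, 5 without ΔIL13RA2 replicate 2 and 9 without replicate 3. In DNA replication 9 of 56 rose and 11 fell (median 0.00), against 17 and 5 on TPM, with 3 rises without CTL replicate 1, 5 without CTL replicate 2 or ΔIL13RA2 replicate 2, 4 without ΔIL13RA2 replicate 3, and 5 falls without ΔIL13RA2 replicate 2. In DNA repair 16 of 65 rose and 6 fell, with 9 rises with the neighbours' median removed, 9 rises without CTL replicate 1 and 8 without ΔIL13RA2 replicate 3. The leading rises in repair, FANCI from 10.4 to 17.4 FPKM and BLM from 3.07 to 5.17 FPKM (adjusted p of 0.000137 and 0.00118), lay on chromosome 15 among genes with a median of 0.33, and the leading fall, XRCC5 from 124 to 81.4 FPKM (adjusted p = 2.79e-05), lay on chromosome 2 at -0.40. The G1 cyclin genes CCNE1 and CCNE2 rose, from 4.06 to 6.15 FPKM (0.50, adjusted p = 0.000693) and from 2.45 to 3.8 FPKM (0.47, adjusted p = 0.00679, neighbours at 0.21), as did CDK6 (0.47, adjusted p = 0.00284). The list of cyclins and CDK inhibitors held 7 rises and 3 falls among 34 tested genes. CCND2, a G1 cyclin gene under the minimum, was lower in ΔIL13RA2 (-0.56, adjusted p = 0.00811 in the limma fit with no minimum).

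Chromatin modifiers were higher more often than lower, with 21 of 103 rising and 4 falling. Their share changed, 24.3%, was below the 28.7% over all genes. On TPM 37 rose and 3 fell, and with the neighbours' median removed 13 rose. The count also depended on the libraries, with 10 rises without CTL replicate 1, 13 without CTL replicate 2, 12 without ΔIL13RA2 replicate 1 and 7 without ΔIL13RA2 replicate 2. CBX2, a Polycomb subunit, rose from 4.03 to 6.79 FPKM (0.63, adjusted p = 0.000165), and SMARCA2, an ATPase of the SWI/SNF remodeler, fell from 4.03 to 2.78 FPKM (-0.42, adjusted p = 0.00258). Of the tested homeobox and lineage factors 10 of 41 rose and 4 fell, against 18 and 3 on TPM. SIX2 and SIX4 rose, from 7.13 to 11.6 FPKM (0.64, adjusted p = 0.00104) and from 4.19 to 6.75 FPKM (0.58, adjusted p = 0.000322), and IRX3 fell from 2.2 to 0.836 FPKM (-0.80, adjusted p = 0.00069).

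In some functions few genes passed the test. Of 18 clock genes 1 rose, NR1D2 (0.24, adjusted p = 0.0463), and 0 fell, and of 11 prostaglandin and eicosanoid genes 1 rose, PTGER4 (0.27, adjusted p = 0.0398), and 0 fell. On TPM 4 clock genes and 2 prostaglandin genes rose. NR1D2 lost its call without CTL replicate 1 or 2 or ΔIL13RA2 replicate 2 or 3, and PTGER4 in each fit that left out a library other than CTL replicate 1. Of 23 genes induced by ERK signaling as feedback, 2 rose and 3 fell, with 0 rises without CTL replicate 2 or 3 or ΔIL13RA2 replicate 1 or 2, 1 without CTL replicate 1, and 5 on TPM. Autophagy genes rose in 0 of 40 and fell in 10, a share changed that was below the 28.7% over all genes. SQSTM1, the cargo receptor p62, led the falls, from 73.9 to 45.3 FPKM (-0.69, adjusted p = 1.66e-05), beside neighbours at -0.16. The list had 1 rise without CTL replicate 2 and 2 without CTL replicate 3, and 2 rises and 8 falls on TPM. With the neighbours' median removed 1 autophagy gene rose and 6 fell.

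The remaining lists changed in both directions. Over all 11761 tested genes 12.6% rose and 16.1% fell, and on TPM 2444 rose and 1358 fell. The chaperones of the heat shock response, which hold proteins of the cytosol in shape, rose in 8 and fell in 9 of 29, with the abundant HSP90AA1 higher (from 314 to 384 FPKM, adjusted p = 0.0204) and the mitochondrial pair HSPD1 and HSPE1 lower, from 133 to 98.8 FPKM and from 26.6 to 18.6 FPKM (adjusted p of 0.00060 and 0.000418). On TPM 11 of these rose and 4 fell, and the rises numbered as few as 3, without CTL replicate 1, and the falls 4, without CTL replicate 2. HSPD1 and HSPE1 lie side by side on chromosome 2, with neighbours at -0.33. Of 33 hypoxia targets 10 rose and 5 fell, with as few as 5 rises and 2 falls without ΔIL13RA2 replicate 2, and 12 rises and 2 falls on TPM. Glycolysis genes rose in 4 and fell in 10 of 30, with 2 rises without ΔIL13RA2 replicate 3, and on TPM 6 rose and 7 fell. Immediate early and AP-1 genes rose in 6 and fell in 10 of 27, an order that turned on TPM (6 and 4), and numbered 3 rises and 5 falls without CTL replicate 1.

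Axon guidance genes rose in 10 and fell in 8 of 32 (6 rises without CTL replicate 1), cell adhesion molecules in 5 and 4 of 26, and lysosomal genes in 12 and 13 of 66. On TPM the rises and falls were 9 and 3 for cell adhesion molecules and 20 and 11 for lysosomal genes, and with the neighbours' median removed 7 lysosomal genes rose. WNT pathway genes rose in 6 and fell in 4 of 30 (2 falls without CTL replicate 2, ΔIL13RA2 replicate 2 or ΔIL13RA2 replicate 3), and Notch pathway genes in 1 and 5 of 20 (3 falls without ΔIL13RA2 replicate 1 or 2), with 4 rises and 3 falls on TPM, where 12 WNT genes rose. Nuclear receptors rose in 6 and fell in 6 of 24, targets of p53 in 3 and 4 of 26, and BCL2 family genes in 2 and 3 of 19 (1 rise without CTL replicate 1 or 2 or ΔIL13RA2 replicate 2 or 3). On TPM 7 targets of p53 rose and 4 fell. Fatty acid genes rose in 7 and fell in 7 of 42, with as few as 3 rises and 4 falls without ΔIL13RA2 replicate 2, and ion channels rose in 8 and fell in 9 of 40, with 4 rises and 4 falls without CTL replicate 1 or ΔIL13RA2 replicate 2. On TPM the rises and falls were 11 and 4 for fatty acid genes and 9 and 4 for ion channels. The counts were 5 and 2 of 16 for growth factors of the FGF, HGF and PDGF kind (3 rises without CTL replicate 1 or ΔIL13RA2 replicate 2), 5 and 4 of 24 for sphingolipid signaling (3 rises without CTL replicate 1 or 2 or ΔIL13RA2 replicate 2 or 3), and 2 and 2 of 13 for immune checkpoints (1 fall without CTL replicate 1 or 2 or ΔIL13RA2 replicate 2). On TPM the same counts were 8 and 2, 9 and 3, and 6 and 1. Cyclins and CDK inhibitors rose in 7 and fell in 3 of 34, with 1 fall without CTL replicate 1 or 2 or ΔIL13RA2 replicate 2 or 3, and on TPM 11 rose and 1 fell. Several of these lists lay near the 28.7% of all genes that changed. The shares were 26.3% for the BCL2 family, 26.9% for p53 targets, 29.4% for cyclins, 30.0% for Notch and 30.8% for immune checkpoints. WNT and fatty acid genes were at 33.3%, and axon guidance genes at 56.2%.

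In the 4 pathways set aside, the rises and falls were 14 and 11 of 71 tested genes for NF-κB, 17 and 12 of 99 for FOXO, 29 and 20 of 131 for focal adhesion, and 38 and 30 of 192 for PI3K-AKT. In this order the shares changed were 35.2%, 29.3%, 37.4% and 35.4%, against 28.7% over all genes. The rises and falls also depended on the scale. On TPM they were 21 and 9 for NF-κB, 29 and 9 for FOXO, 49 and 7 for focal adhesion, and 60 and 21 for PI3K-AKT. With the neighbours' median removed 11 FOXO genes rose and 12 fell. Without ΔIL13RA2 replicate 2 the rises in FOXO numbered 10, the falls in focal adhesion 7, and the rises and falls in PI3K-AKT 23 and 19. Without CTL replicate 1 the rises in FOXO numbered 11, the falls in focal adhesion 10 and the rises in PI3K-AKT 21, and the falls in focal adhesion numbered 13 without CTL replicate 2 and 8 without ΔIL13RA2 replicate 3.

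Several more genes were among the largest changes, most of them in none of the lists. Among the falls, OTULINL, a relative of a deubiquitinase, was at 6.54, 5.42 and 5.93 FPKM in CTL and at 0.454, 0.559 and 0.638 in ΔIL13RA2 (-2.17, adjusted p = 6.94e-06). MXRA8, a cell-surface adhesion protein known as an alphavirus receptor, fell from 9.95 to 2.51 FPKM (-1.64, adjusted p = 9.72e-06), EPB41L3, a membrane-cytoskeleton linker, from 6.38 to 1.48 FPKM (-1.57, adjusted p = 6.04e-06), and KCNAB2, a potassium channel β subunit and a member of the ion channel list, from 5.8 to 0.936 FPKM (-1.81, adjusted p = 6.04e-06). KRTAP2-3, CD22 and ITM2A fell with log2 differences of -1.48, -1.46 and -1.42 (adjusted p of 1.07e-05, 2.21e-05 and 0.000292). Among the rises, ARRDC4, an arrestin-like regulator, was at 2.46, 2.04 and 2.09 FPKM in CTL and at 6.64, 6.52 and 6.79 in ΔIL13RA2 (1.26, adjusted p = 2.39e-05), beside chromosome 15 neighbours at 0.29. PTGFRN, a tetraspanin partner, rose from 1.16 to 3.75 FPKM (1.14, adjusted p = 0.000103) and SLC12A7, a potassium chloride cotransporter, from 0.577 to 2.44 FPKM (1.13, adjusted p = 0.000177). The other 5 of the 15 largest rises not yet named were CACNG7, SPINT1, CCDC190, CT62 and VSTM1, with log2 differences of 1.04, 1.02, 1.01, 1.0 and 0.97. CACNG7 is in the ion channel list and SPINT1, an inhibitor of serine proteases, in the protease list. CT62, a cancer-testis gene by its name, was not among the listed antigens counted above, and its neighbours on chromosome 15 had a median of 0.34.

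**Figure D4:**
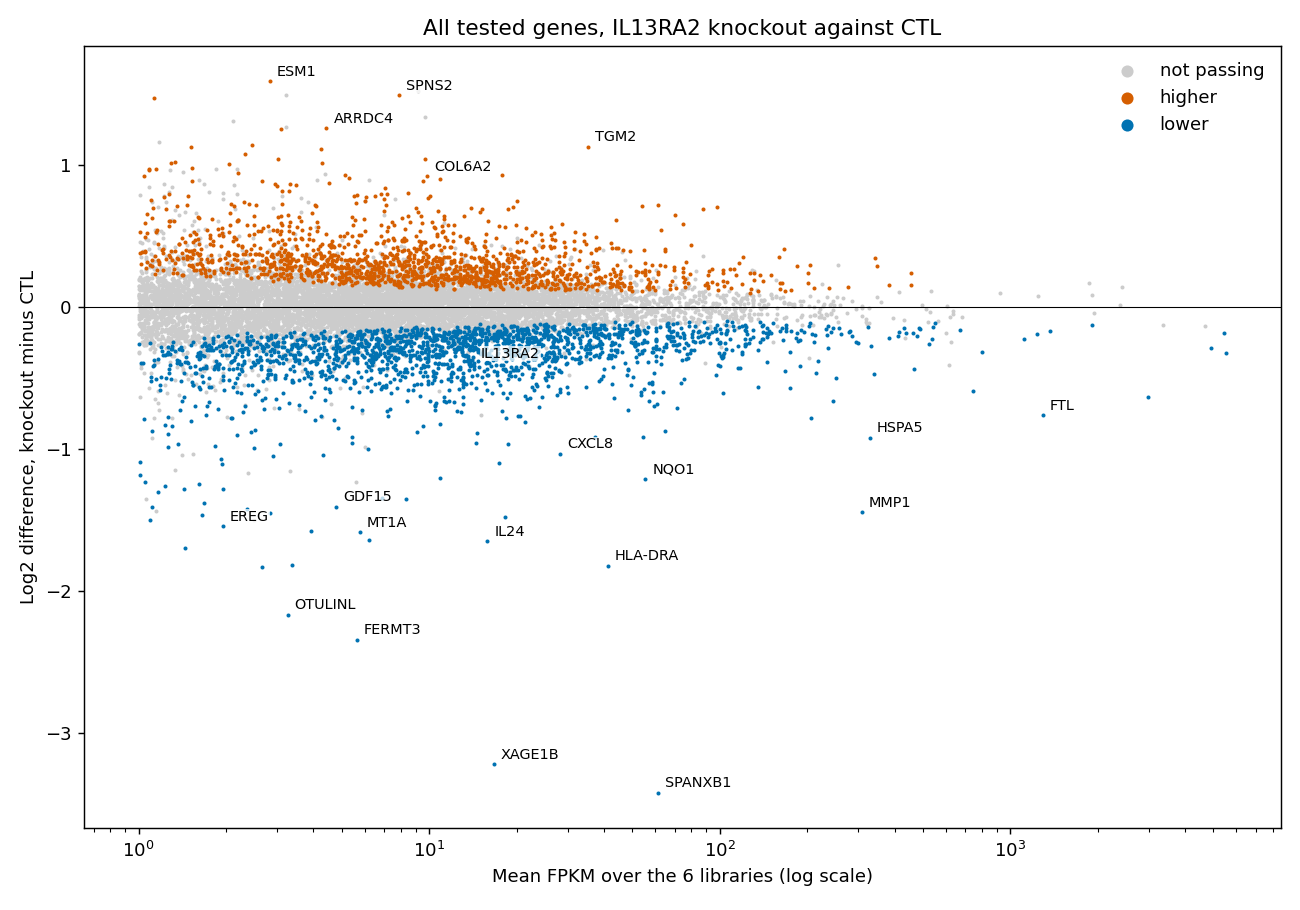
Log2 difference (ΔIL13RA2 minus CTL, vertical axis) against mean FPKM (horizontal axis, log scale) for the 11761 tested genes, with genes at an adjusted p under 0.05 (limma) in color, orange higher and blue lower, the others grey, and named genes labeled. The changes of 1 or more on the log2 scale are 16 rises and 40 falls, and MMP1 and FTL stand out among the abundant genes.

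The changed genes were not spread evenly over the chromosomes. On chromosome 2, 340 of 801 tested genes (42.4%) fell and 44 rose, with a median log2 difference of -0.17, and on chromosome 16, 136 of 496 fell and 12 rose (median -0.10). On chromosome 15, 166 of 361 tested genes rose and 18 fell (median 0.20), and on chromosome 13, 73 of 209 rose and 10 fell (median 0.12). Chromosome 4 held many changes of both signs, with 89 rises and 96 falls among 434 genes. By kind of transcript, 30.5% of 10340 protein-coding genes changed, and of 259 long intergenic RNAs 18 rose and 47 fell. With the median of the 25 tested neighbours on each side taken from every gene, 2365 genes (20.1%) passed the test. What the runs of neighbouring genes stem from was not tested, and where a named gene past the test lies in such a run on chromosome 2, 13 or 15, its neighbours' median is given with it. For genes on chromosome 16 it was not given above. It was -0.16 for NQO1, -0.17 for MLKL, and -0.02 for MT1A and HERPUD1. The log2 difference of AARS was -0.50 with the neighbours' median removed, against -0.66. The amino-acid stress list had 0 changed members with a neighbour median of 0.2 or more in size, and the class II list also had 0, the unfolded protein response list 1 and the NRF2 list 2.

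**Figure D5:**
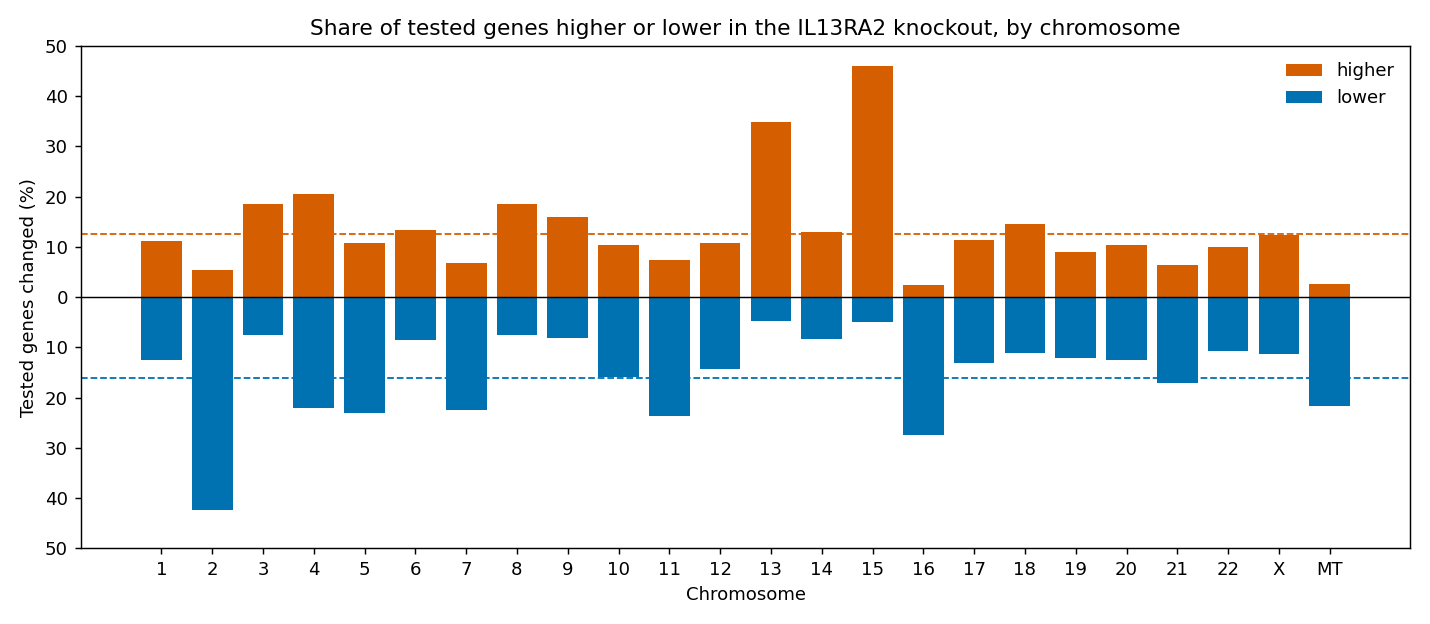
Percent of tested genes on each chromosome (horizontal axis, with MT for the mitochondrial genome; tested genes only) that rose (orange, upward) or fell (blue, downward) in ΔIL13RA2 at an adjusted p under 0.05 in limma. Dashed lines mark the shares over all genes, 12.6% and 16.1%. Chromosomes 15 and 13 reach far above the upper line, and chromosome 2 far below the lower one.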

How the data were processed

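RNA-Seq of MDA231BrM2-CTL and MDA231BrM2-ΔIL13RA2 was read from the human table, in which the authors deposited FPKM per gene. The submitters' processing notes name HISAT2 2.0.5, featureCounts 1.5.0-p3 and hg38, and whether counting used strand is not given in the sources used here, so overlapping and antisense genes are uncertain. Values were whole reads within 0.1 read, which gave the depth. The FPKM were tested as log2(FPKM + 1) with limma 3.58.1 (R 4.3.3, trend and robust), without a replicate block, over the genes with a mean of at least 1 FPKM in the 6 libraries, and p-values were adjusted by Benjamini-Hochberg. The script was checked on simulated data. The neighbour median is the median log2 difference of the 25 tested genes on each side.

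The members and lists were chosen with earlier results of these data known. The text names IL13RA2 and the genes of the study's primers, the 15 largest rises and falls outside the 4 pathways among protein-coding genes whose groups did not overlap, up to 3 leading members per list each way, and markers, and further members as examples chosen after their values were seen. Alternatives were another pseudocount, other minimum values, quantile normalization, TPM, no trend, a replicate block, limma-voom on recovered reads, the neighbours' median removed, and 1 library left out. Some genes of the lists are counted but not reported here by name.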

Additional observations from a re-analysis of the deposited data

How the results depend on the processing

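The count of changed genes (3373) was 2237 with no minimum FPKM, and 2235 to 3101 in the fits without 1 library, lowest without ΔIL13RA2 replicate 2. The changed genes of the functional lists, 695 with each gene taken once, numbered 455 with no minimum FPKM and 482 to 631 without 1 library. The fall of IL13RA2 was -0.39 with no minimum FPKM and missed the threshold there (adjusted p = 0.0900 in limma), and without 1 library it ran from -0.48 to -0.30. Over all alternatives its adjusted p ran from 0.00393 (limma-voom, which called 3902 genes on the recovered reads) to 0.0900. Of the 175 named genes past the test, 22 lost the call with no minimum FPKM, 19 with the neighbours' median removed, 9 on TPM, 6 after quantile normalization and 8 to 18 without 1 library, and 0 changed direction with a call in any of the alternatives run. The cause of these losses was not tested.

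The replicate numbers are shared between the groups, but the deviations of same-numbered libraries from their group means correlated at 0.0369, -0.106 and 0.173, and CTL replicates 1 and 2 correlated best with another number, so the numbers were not taken as pairing. With the replicate block 3187 genes passed, IL13RA2 was at -0.39 and missed the threshold (adjusted p = 0.0505), and 3 of the named genes lost the call.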
